A study of Homo sapiens with 4 samples.

Results

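Autophagy genes were examined in HCT116 cells depleted of LAS1L, a nucleolar protein needed to process the RNA precursors of the large ribosomal subunit. The set holds 39 genes chosen by symbol for their part in autophagy and not for any measured value. Each was read from its brightest probe on the array. All 39 had a probe, and 35 had one bright enough to be tested among 10466 tested genes. ATG2B, MAP1LC3A, NBR1 and TFEB had no probe above the background limit of 28.1 signal units on at least 2 arrays, so no level or change is given for them.

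Autophagy carries cytoplasm to the lysosome inside a double membrane. The ULK kinase complex starts the process, and a class III PI3-kinase complex marks the site with a phosphoinositide lipid. Lipid-binding and lipid-moving proteins then enlarge the membrane, conjugating enzymes attach ATG8 proteins of the LC3 and GABARAP subfamilies to it, and cargo receptors tie the material to be degraded to those ATG8 proteins. Signalling through mTORC1 holds the ULK complex in check when nutrients are plentiful, while AMPK favours its activity.

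HCT116 is an established line from a human colorectal carcinoma. The cells were transfected with 40 nM siRNA and harvested after 72 h. Control siRNA was measured on 2 arrays, and Las1L siRNA on another 2, of which 1 received siRNA #1 and 1 siRNA #2. Nothing in the labels says that the control arrays came from separate cultures, so p-values measure only the spread between these arrays, which may be technical, and the spread within the Las1L group also holds whatever differs between its siRNAs.

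The siRNAs are shown because each Las1L array stands for a different one of them. They are written as deposited, without the overhang and with no letter marked.
Control siRNA: gaucauacgugcgaucaga
Las1L siRNA #1: cugauacgcuguaagcucu
Las1L siRNA #2: cauuuauacccagagugga

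On each array 17280 to 17284 probes were above the background limit. The values were deposited normalized, so alike counts do not show that the arrays were of like quality. The log2 signals of tested genes had a Pearson correlation of 0.988 for the control pair and 0.989 for the Las1L pair. The signal of LAS1L itself was 770 and 717.5 in the controls, 211.5 with siRNA #1 and 158.1 with siRNA #2, lower on both Las1L arrays than on either control. Its log2 fold change was -2.02 (SE 0.14, limma with intensity trend, adjusted p = 1.04e-08). The epithelial label of the line was checked with 12 markers, of which 8 were measured. EPCAM, an epithelial adhesion protein, gave signals between 6428 and 7035. The colon differentiation markers KRT20, VIL1 and CDX1 had no tested probe. CDX2, a further one in the list, gave 211 and 184 in the controls and 207.6 and 177.2 after Las1L siRNA. Of the 8, CDH1, the adhesion protein E-cadherin, rose by 0.43 and CLDN7, a tight junction protein, by 0.35 on the log2 scale (limma with trend, adjusted p = 0.0194 and 0.0129), and their part in the results below was not tested. The 8 markers summed to signals of 22616 and 21410 in the controls and 22173 and 22311 after Las1L siRNA. Of 13 fibroblast, endothelial and leukocyte markers 5 were measured, with sums of 329.2 and 423.9 in the controls and 435.2 and 391.9 after Las1L siRNA, and PTPRC, PECAM1, VWF, DCN and COL3A1 were among the 8 that had no tested probe. In RNA from whole cultures, a change in the number of cells that express a gene cannot be told apart from a change in RNA per cell.

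Las1L siRNA was set against control siRNA to see whether transcripts of the autophagy machinery differ when LAS1L is depleted. Of the 35 tested genes 6 were higher, or 17.1% beside 11.3% of all tested genes. Only 1 was lower, or 2.86% beside 10.8%. WIPI1, a phosphoinositide-binding protein of the growing membrane, was 2.47-fold higher. MAP1LC3B, the LC3 protein most used as an autophagosome marker, was 2.28-fold higher, and TAX1BP1, a cargo receptor, was 1.64-fold higher. ATG5, ATG10 and ULK1 were 1.82-fold, 1.76-fold and 1.53-fold higher. PIK3R4, the regulatory subunit of the class III PI3-kinase, was 1.94-fold lower.

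Calls come from limma in 2 forms, each adjusted by Benjamini-Hochberg over all 10466 genes at 0.05. The fit with an intensity trend lets the expected variance depend on signal, and "rose" and "fell" below refer to it. The fit without a trend uses 1 variance prior for all signals. The trend fit was chosen knowing that an earlier fit of these data without a trend, over all tested probes, had passed no gene. With the trend 7 of 35 members passed, or 20%, while 22.1% of all tested genes did. By direction 6 rose, or 17.1% beside 11.3% of all genes, and 1 fell, or 2.86% beside 10.8%. Without the trend 3 members passed as higher, WIPI1, MAP1LC3B and TAX1BP1, and 0 as lower. They were 8.57% of the members beside 4.78% of all genes, 2.72% as higher and 2.05% as lower. At an unadjusted p under 0.05 that fit held 12 members, or 34.3%, beside 28.6% of all genes. In 11 members both Las1L arrays lay above both controls and in 6 below, together 48.6% of the 35, while the same held for 59.7% of all genes, 29.9% above and 29.8% below. The median log2 fold change of the members was 0.02, with 18 positive and 17 negative values, and that of all tested genes was 0.00. These counts are few and describe the set. Whether its shares differ from those of all genes was not tested. With 2 arrays against 2 an exact permutation test of a single gene cannot go below p = 0.33, so none is given.

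With probes above the background limit on at least 2 of 4 arrays, the calls depend on both Las1L arrays. Without Las1L siRNA #1 the trend fit passed 0 members and 1% of all genes, and without Las1L siRNA #2 it passed 0 members and 0.64% of all genes. The folds of MAP1LC3B, at 1.06 and 1.31, and of TAX1BP1, at 0.73 and 0.70 on the log2 scale, stayed about as large. Those of ATG10, at 1.04 and 0.60, and of PIK3R4, at -1.18 and -0.74, varied more. Without control replicate 1 or control replicate 2 the trend fit passed the same 6 as higher, with PIK3R4 lost without control replicate 1. The fit without a trend passed 0 members without any 1 of the 4 arrays, and also 0 when all tested probes were fitted in place of 1 probe per gene, an alternative chosen after seeing the data. With values under 50, not 16, raised to that floor the trend fit passed TAX1BP1 alone of 35 members, beside 2.42% of all genes. With no filter on dim probes it passed 0 of 39 members and 0% of all genes.

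**Figure D1:**
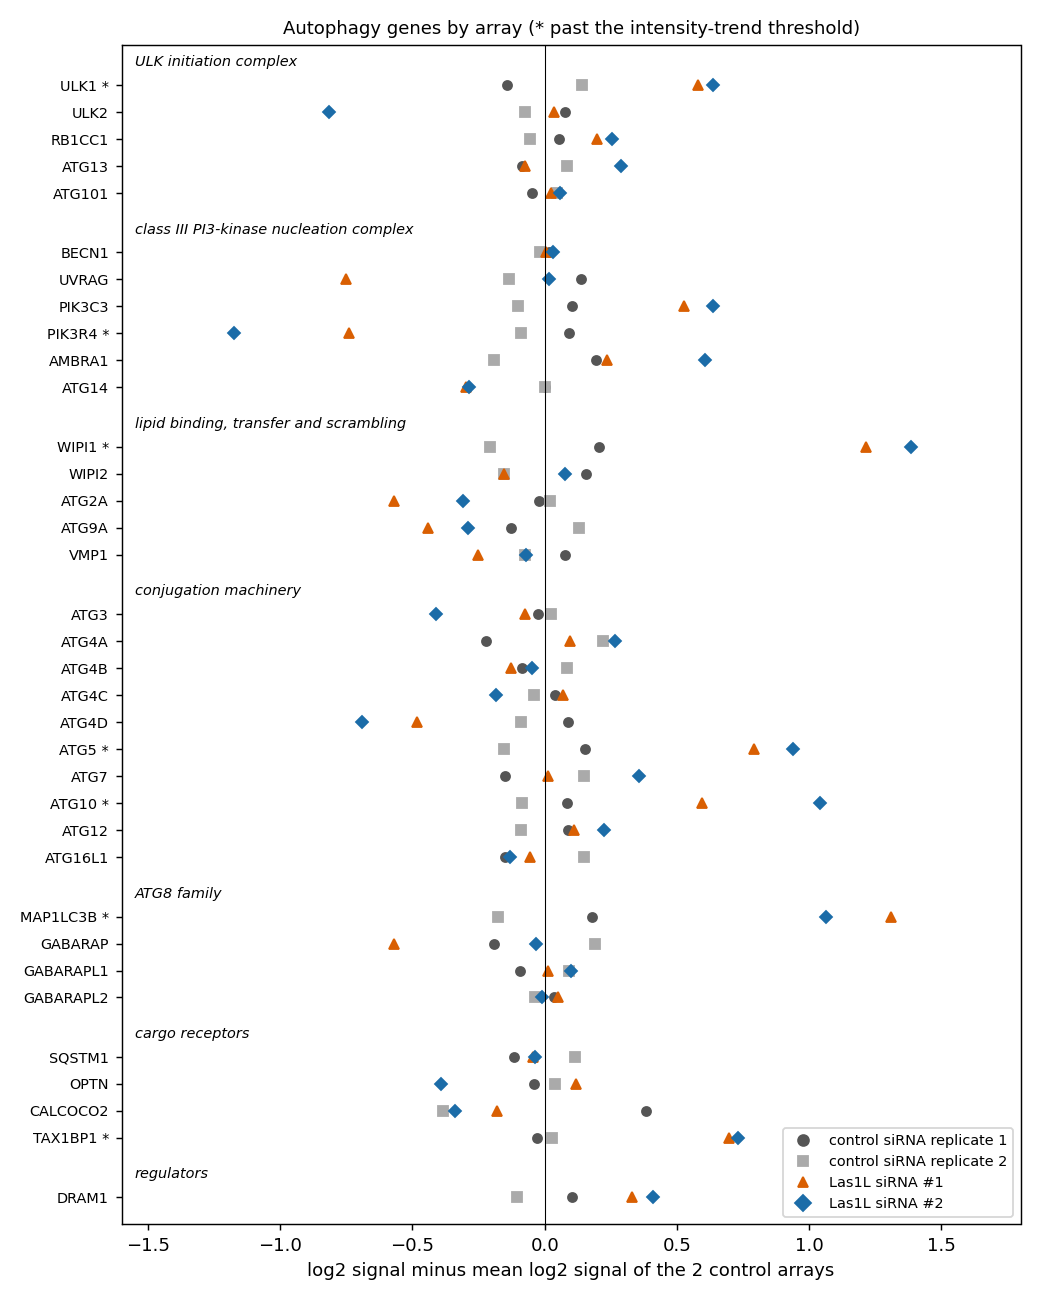
Log2 signal of each of the 35 tested autophagy genes on each of the 4 arrays, less the mean of the 2 control arrays (x axis), with genes grouped by role (y axis) and an asterisk on those past the intensity-trend threshold. Grey points are the control arrays and coloured points the Las1L arrays. In the 6 genes that rose both coloured points lie right of both grey ones, and in PIK3R4 both lie left.

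**Figure D2:**
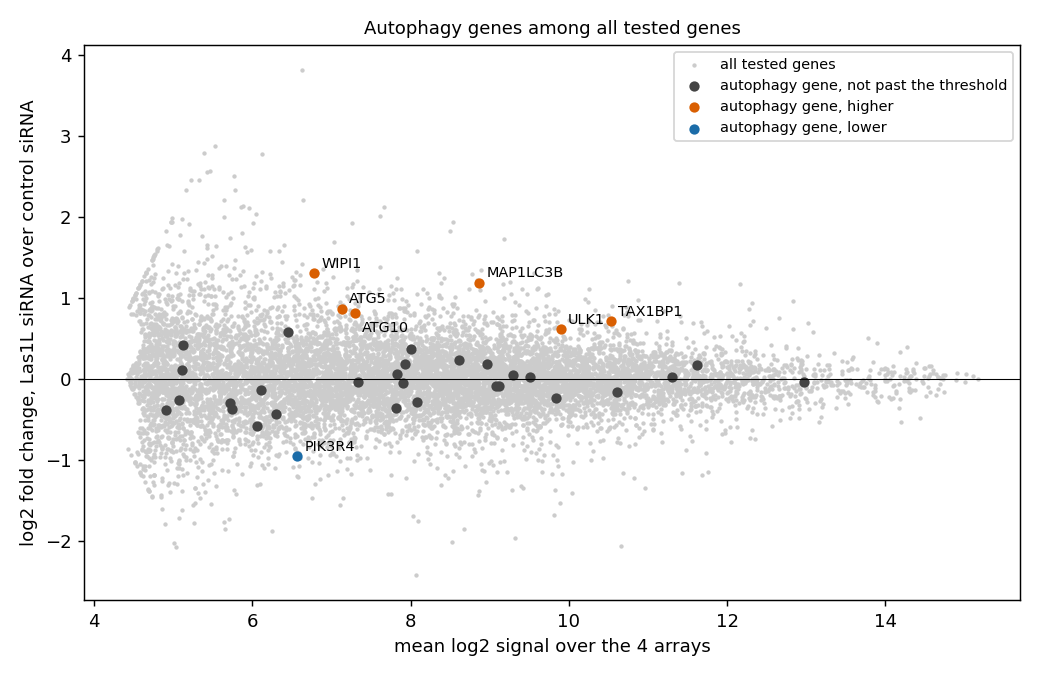
Log2 fold change of Las1L siRNA over control siRNA (y axis) against the mean log2 signal over the 4 arrays (x axis) for all 10466 tested genes in light grey, with the 35 autophagy genes in dark grey, or in colour where past the intensity-trend threshold. The autophagy genes lie on both sides of 0, with a median of 0.02, and many other genes changed as much as WIPI1 and MAP1LC3B.

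In the ULK complex 1 of 5 members rose, or 20% beside 11.3% of all genes. ULK1, the kinase that starts autophagy, gave signals of 699.1 and 850.1 in the controls, 1153.4 with siRNA #1 and 1198.7 with siRNA #2. Both Las1L signals were above both controls, and the log2 fold change was 0.61 (SE 0.11, limma with trend, adjusted p = 0.000488). A further ULK1 probe behaved alike, with control signals of 603.1 and 688.1 and Las1L signals of 943.7 and 982.2, a log2 fold change of 0.58. ULK1 did not pass without the trend (adjusted p = 0.0817). RB1CC1, the scaffold also called FIP200, had signals of 375.6 and 348.6 in the controls and 415.1 and 431.6 after Las1L siRNA. These groups did not overlap either, but the log2 fold change of 0.23 missed the threshold (limma with trend, adjusted p = 0.195). ATG101, which stabilises the scaffold subunit ATG13, had a log2 fold change of 0.04 with a 95% interval from -0.18 to 0.27. ATG13 itself and ULK2, the ULK1 paralogue, were close to the background limit, with signals of 31.5 to 40.8 and of 19.5 to 36.2. Their log2 fold changes of 0.11 and -0.39 carried standard errors of 0.38 and 0.44, so changes of moderate size were not detectable in them.

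In the class III PI3-kinase complex its subunits differed among themselves. PIK3R4, the pseudokinase subunit also called VPS15, gave 140.8 and 124.2 in the controls, 79.1 with siRNA #1 and 58.5 with siRNA #2. Both Las1L signals were lower than both controls, the siRNA #2 signal the lowest. It fell by 0.96 on the log2 scale (SE 0.22, limma with trend, adjusted p = 0.00378), with an adjusted p of 0.064 without the trend. PIK3C3, the catalytic subunit VPS34 to which PIK3R4 binds, gave 76.8 and 66.7 in the controls and 103.1 and 111.2 after Las1L siRNA. Its groups did not overlap in the opposite direction, and its log2 fold change of 0.58 did not pass in limma with the trend (adjusted p = 0.0635) or without it (adjusted p = 0.0766). Of 16 alternative settings PIK3C3 passed in 4 without the trend and in 2 with it, each time including a threshold of 0.1. BECN1, the scaffold Beclin 1, gave 729.9 and 712.4 in the controls and 724.2 and 736.5 after Las1L siRNA. The arrays overlapped, and the log2 fold change of 0.02 had a 95% interval from -0.20 to 0.23. ATG14, which directs the complex to autophagy, had signals of 299.3 and 299.2 in the controls and 243.7 and 245.6 after Las1L siRNA, a log2 fold change of -0.29 that missed the threshold (limma with trend, adjusted p = 0.128). UVRAG, the alternative partner of Beclin 1, had a log2 fold change of -0.37, with 36.2 on the siRNA #1 array and 61.6 on the siRNA #2 array, the latter between its controls. AMBRA1, a regulator of Beclin 1, was near the limit at 26.4 to 46.0, with a log2 fold change of 0.42 and an SE of 0.39.

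Of the lipid-binding and lipid-moving proteins 1 of 5 tested rose, or 20% beside 11.3% of all genes. WIPI1, which binds the lipid that the PI3-kinase makes, gave signals of 80.7 and 60.6 in the controls, 162.6 with siRNA #1 and 182.9 with siRNA #2. Both Las1L signals were above both controls, and the log2 fold change of 1.30 was the highest among the tested members (SE 0.20, limma with trend, adjusted p = 0.000139). It also passed without the trend (adjusted p = 0.0418). WIPI2, its paralogue that recruits the conjugating enzymes, gave 181.6 and 146.4 in the controls and 146.4 and 171.8 after Las1L siRNA, so that the groups overlapped, with a log2 fold change of -0.04 (95% interval from -0.40 to 0.32). ATG2A, a lipid transfer protein, and ATG9A, a scramblase on the vesicles that seed the membrane, each had both Las1L arrays below both controls. Signals of ATG2A were 90.6 and 93.2 in the controls against 61.9 and 74.2, and those of ATG9A were 233.1 and 278.5 against 187.7 and 208.4. Their log2 fold changes of -0.44 and -0.37 missed the threshold (limma with trend, adjusted p = 0.19 and 0.0881). VMP1, an endoplasmic reticulum scramblase, had a log2 fold change of -0.16 with overlapping groups.

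Among the 10 conjugation genes 2 rose, or 20% beside 11.3% of all genes, and 0 fell, beside 10.8%. ATG5, which joins ATG12 in the conjugate that places ATG8 proteins on the membrane, gave 115.3 and 93.2 in the controls, 179.6 with siRNA #1 and 198.7 with siRNA #2. Both Las1L signals were higher than both controls, with a log2 fold change of 0.87 (SE 0.18, limma with trend, adjusted p = 0.00179, and 0.0566 without the trend). ATG10, the enzyme that links ATG12 to ATG5, gave 125.6 and 111.5 in the controls and 179 and 243.3 after Las1L siRNA. The groups did not overlap, and the log2 fold change was 0.82 (SE 0.18, limma with trend, adjusted p = 0.00279, and 0.082 without the trend). A dimmer ATG10 probe gave 30.5 and 25.2 in the controls against 46.2 and 49, a log2 fold change of 0.78 that missed the threshold when all tested probes were fitted (limma with trend, adjusted p = 0.174). ATG12, the ubiquitin-like partner of both, gave 3161 and 2791 in the controls and 3211 and 3466 after Las1L siRNA, and its log2 fold change of 0.17 did not pass (95% interval from -0.03 to 0.36).

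The remaining conjugation genes did not pass. ATG4D, a protease that trims and releases ATG8 proteins, had the lowest value in this group, with 87.3 and 77.2 in the controls, 58.7 with siRNA #1 and 50.8 with siRNA #2. Its groups did not overlap, and its log2 fold change of -0.59 missed the threshold (limma, adjusted p = 0.106 with the trend and 0.0833 without it). Of 16 alternative settings ATG4D passed in 2 without the trend and in 0 with it. The other ATG4 proteases ATG4A, ATG4B and ATG4C had log2 fold changes of 0.18, -0.09 and -0.06, each with overlapping groups. ATG7, the activating enzyme of both conjugation reactions, had a log2 fold change of 0.18 (95% interval from -0.10 to 0.46). ATG3, which transfers ATG8 proteins to lipid, had one of -0.24, with 747.7 on the siRNA #2 array against 943.1 with siRNA #1 and control signals of 977.2 and 1011. ATG16L1, which anchors the ATG12 and ATG5 conjugate, had one of -0.09 by its brightest probe and -0.32 by a further probe, with neither past the threshold.

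In the ATG8 family 1 of 4 tested members rose, or 25% beside 11.3% of all genes. MAP1LC3B gave signals of 349 and 272.9 in the controls, 765.3 with siRNA #1 and 645.2 with siRNA #2. Both Las1L signals were well above both controls, the siRNA #1 signal the highest. The log2 fold change was 1.19 (SE 0.13, limma with trend, adjusted p = 3.79e-06), and the gene also passed without the trend (adjusted p = 0.0438). The near-identical gene MAP1LC3B2 may share this probe, whose letters were not used here. The GABARAP subfamily, which acts in closure of the membrane and in fusion with the lysosome, did not pass. GABARAPL2 gave 2578 and 2457 in the controls and 2604 and 2502 after Las1L siRNA, and GABARAPL1 gave 208 and 236.9 against 223.7 and 238. Both had overlapping groups, with log2 fold changes of 0.02 (95% interval from -0.16 to 0.21) and 0.06 (from -0.25 to 0.36). GABARAP, at 39.3 to 66.6, had a log2 fold change of -0.30 with an SE of 0.31. A second, dim GABARAPL2 probe gave 37.7 and 43.2 against 47.9 and 74.6, with a log2 fold change of 0.57 that missed the threshold when all tested probes were fitted (limma with trend, adjusted p = 0.265).

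Among 4 tested cargo receptors 1 rose, or 25% beside 11.3% of all genes. TAX1BP1, which binds ubiquitinated cargo, gave 1130 and 1174 in the controls, 1869 with siRNA #1 and 1911 with siRNA #2. The arrays of each group lay close together and the groups did not overlap. Its log2 fold change was 0.71 (SE 0.09, limma with trend, adjusted p = 1.96e-05), and it passed without the trend as well (adjusted p = 0.0423). The further TAX1BP1 probe gave 563.3 and 614.2 against 971.9 and 980.7, a log2 fold change of 0.73. SQSTM1, the receptor p62, which is itself degraded by autophagy, gave 7523 and 8822 in the controls and 7893 and 7942 after Las1L siRNA. Both Las1L signals lay between the controls, and the log2 fold change of -0.04 had a 95% interval from -0.23 to 0.15. OPTN and CALCOCO2, receptors in the clearance of bacteria and mitochondria, had log2 fold changes of -0.14 and -0.26 with overlapping groups, and the CALCOCO2 signals were only 28.2 to 48 units. DRAM1, a lysosomal membrane protein and p53 target that promotes autophagy, gave 242.5 and 209.6 in the controls and 283.4 and 299.6 after Las1L siRNA. Its groups did not overlap, and its log2 fold change of 0.37 missed the threshold (limma, adjusted p = 0.0651 with the trend and 0.152 without it).

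**Figure D3:**
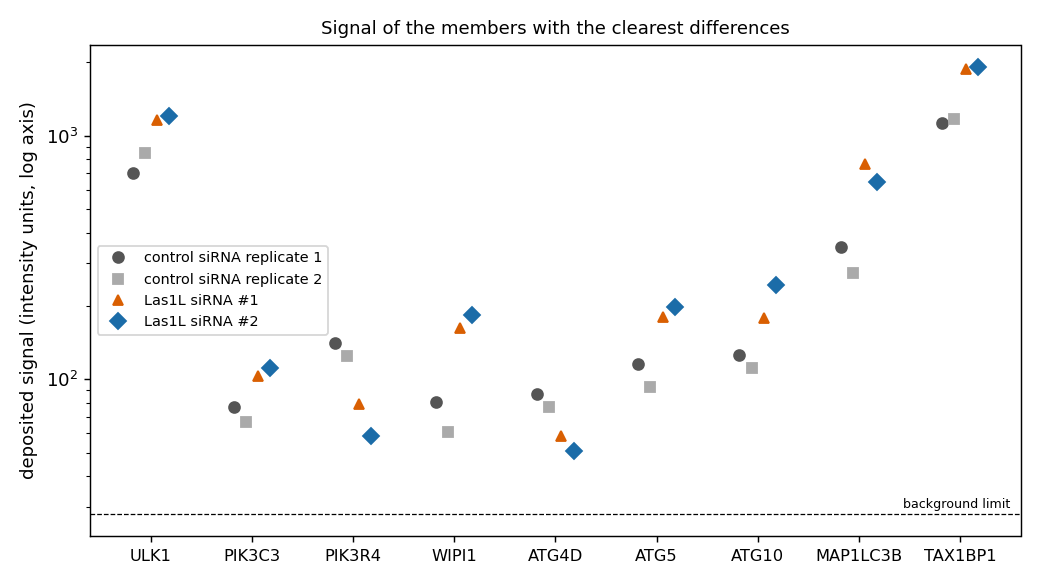
Deposited signal on each array (y axis, intensity units on a log axis) for the 7 autophagy genes past the intensity-trend threshold and for PIK3C3 and ATG4D, whose groups do not overlap at an absolute log2 fold change of at least 0.5. Points are single arrays and the dashed line is the background limit of 28.1. PIK3R4 and ATG4D were lower on both Las1L arrays and the other 7 higher, and MAP1LC3B went from 349 and 272.9 to 765.3 and 645.2.

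By role, the median log2 fold change was 0.11 for the ULK complex, -0.14 for the PI3-kinase complex, -0.16 for the lipid-binding and lipid-moving proteins, 0.06 for conjugation, 0.04 for the ATG8 family and -0.09 for cargo receptors. Each is small beside the spread of its own members, which ran from -0.96 to 0.58 in the PI3-kinase complex and from -0.44 to 1.30 among the lipid-binding proteins. Leaving out 1 array moved the medians to between 0.02 and 0.25 for the ULK complex, -0.25 and -0.07 for lipid-binding proteins and 0.01 and 0.07 for the ATG8 family. That of the ULK complex moved by more than 1.5 times without any 1 of the 4 arrays. The sign of the PI3-kinase median turned without Las1L siRNA #1 (0.02), that of cargo receptors without Las1L siRNA #2 (0.04) and that of conjugation without control replicate 1 (-0.03). Of the 8 members with more than 1 tested probe, all 8 had probes of the same sign.

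The siRNAs were also set against the control pair one at a time in a fit of 3 groups, which takes the spread of each single siRNA array from that of the controls. These comparisons share the control arrays, so their values are given side by side. MAP1LC3B had log2 fold changes of 1.31 with siRNA #1 and 1.06 with siRNA #2, WIPI1 1.22 and 1.39, and TAX1BP1 0.70 and 0.73. ATG5 had 0.79 and 0.94, ULK1 0.58 and 0.64, ATG10 0.60 and 1.04, and PIK3R4 -0.74 and -1.18. Of the 35 members 0 passed for either siRNA in limma with the trend, beside 0.717% of all genes for siRNA #1 and 1.13% for siRNA #2, and 0 passed without the trend, where 0 of all genes did. On the 33 members above background on all 4 arrays, the trend fit passed 7 for siRNA #1, or 21.2%, and 8 for siRNA #2, or 24.2%, beside 15.8% and 18.2% of the 9140 genes tested there. They were the 7 that changed in the pooled comparison and, for siRNA #2, ATG3. Directly between the siRNAs limma passed 0 members and 0 genes with or without the trend. At an unadjusted p under 0.05 there were 2 members without the trend, ULK2 (log2 difference of -0.85, siRNA #2 minus siRNA #1) and UVRAG (0.77), or 5.71% beside 4.49% of all genes. With the trend there were 0, beside 2.38%. With 1 array for each siRNA this does not show that they act alike.

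The promoters of MAP1LC3B and WIPI1, the members with the highest fold changes, are shown because transcription factors of the TFEB family are known to act on autophagy and lysosomal genes through the CLEAR element, whose core is the E-box CACGTG. The RefSeq table of GRCh38.p14 holds windows of 300 bases, 250 before and 50 after a start, for 35 of the 39 members, without RB1CC1, UVRAG, ATG4D and MAP1LC3A. Capitals mark CACGTG, which reads the same on both strands, and only the 250 bases before the start are printed for these promoters.
MAP1LC3B, chr16:87392086-87392335, plus strand: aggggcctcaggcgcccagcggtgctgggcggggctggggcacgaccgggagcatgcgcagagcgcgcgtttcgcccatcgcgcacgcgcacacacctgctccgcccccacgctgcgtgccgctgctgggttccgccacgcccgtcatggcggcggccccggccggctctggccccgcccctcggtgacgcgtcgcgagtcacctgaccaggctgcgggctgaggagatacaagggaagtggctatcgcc
WIPI1, chr17:68457497-68457746, minus strand: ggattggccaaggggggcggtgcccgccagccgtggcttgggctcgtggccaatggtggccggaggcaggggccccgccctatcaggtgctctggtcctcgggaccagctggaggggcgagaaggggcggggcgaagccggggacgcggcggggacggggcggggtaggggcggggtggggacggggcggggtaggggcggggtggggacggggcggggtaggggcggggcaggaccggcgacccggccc

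Neither window holds CACGTG, and 0 of the 6 members that rose have it in their windows. Only exact matches were searched for, so near matches were not counted. It occurs in 7.26% of all 35116 windows and in those of 2 of the 35 members, ATG3 and ATG14, neither of which passed the threshold. The longer TCACGTGA, which contains it, occurs in 0.98% of all windows and in that of ATG3. The full CLEAR palindrome, which contains both, occurs in 0.353% of all windows and in 0 of the members'. The matches in ATG14 and ATG3 are shown with their flanks, and begin 21 and 18 bases before the start and, for the further ATG3 match, at base 6 after it. A match or its absence in these windows describes letters and shows nothing about binding.
ATG14, chr14:55411834-55411863, minus strand: aaaacaaaatccCACGTGactggctctcct
ATG3, chr3:112561963-112561992, minus strand: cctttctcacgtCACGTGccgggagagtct
ATG3, chr3:112561940-112561969, minus strand: agagtctagtgtCACGTGaggccccggtgg

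Genes around the autophagy machinery were examined in 4 further lists. In signalling through mTORC1 and AMPK 7 of 34 tested genes rose and 1 fell, or 23.5%, near the 22.1% of all genes, with a median log2 fold change of 0.11. By direction 20.6% rose beside 11.3% of all genes, and 2.94% fell beside 10.8%. SESN1 and SESN2, p53-induced sestrins that restrain mTORC1, led the list. SESN1 gave 113.3 and 84.7 in the controls and 396.7 and 391.1 after Las1L siRNA, a log2 fold change of 2.01 (SE 0.16, limma with trend, adjusted p = 7.51e-08). SESN2 went from 24.6 and 35.8, the first under the background limit, to 81.3 and 72.8 (1.37, SE 0.32, limma with trend, adjusted p = 0.00437). Both also passed without the trend (adjusted p = 0.0268 and 0.0474 in limma).

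Subunits of AMPK, the kinase activated at low energy, moved in both directions. PRKAA1, a catalytic subunit, rose by 0.58 and PRKAG2, a regulatory subunit that binds AMP, by 0.58, while PRKAB2, a scaffold subunit, fell by 0.60. The Las1L signals of PRKAA1 were 455.3 and 536.6 against 329.7 and 333.3. RRAGA, a GTPase that brings mTORC1 to the lysosome, rose by 0.57, from 1226 and 1264 to 1928 and 1771. PRKAA1, PRKAG2, PRKAB2 and RRAGA did not pass without the trend (limma, adjusted p = 0.0783, 0.0855, 0.0647 and 0.0626). PRKAB2 was near the threshold with the trend (limma, adjusted p = 0.0393).

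In autophagosome tethering and fusion, the later steps of the pathway, 2 of 22 tested genes rose, or 9.09% beside 11.3% of all genes. In that list 0 fell, beside 10.8% of all genes. The genes that rose were VAMP8, a SNARE protein of autophagosome fusion, from 1245 and 1579 to 2130 and 1978 (log2 fold change of 0.55), and VPS16, a tethering subunit, by 0.50. Among other selective autophagy receptors and their regulators 3 of 19 rose, or 15.8% beside 11.3% of all genes, and 0 fell, beside 10.8%. PINK1, the kinase that marks damaged mitochondria, rose by 0.55, TRIM5 by 0.42 and ATL3, a receptor for endoplasmic reticulum, by 0.38. The last list holds transcription factors that act on autophagy genes, of which FOXO1, FOXO3, FOXO4 and ZKSCAN3 were tested. FOXO3 rose by 0.37, and TFE3, MITF and TFEC, like TFEB, had no tested probe. None of these 6 genes passed without the trend.

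**Figure D4:**
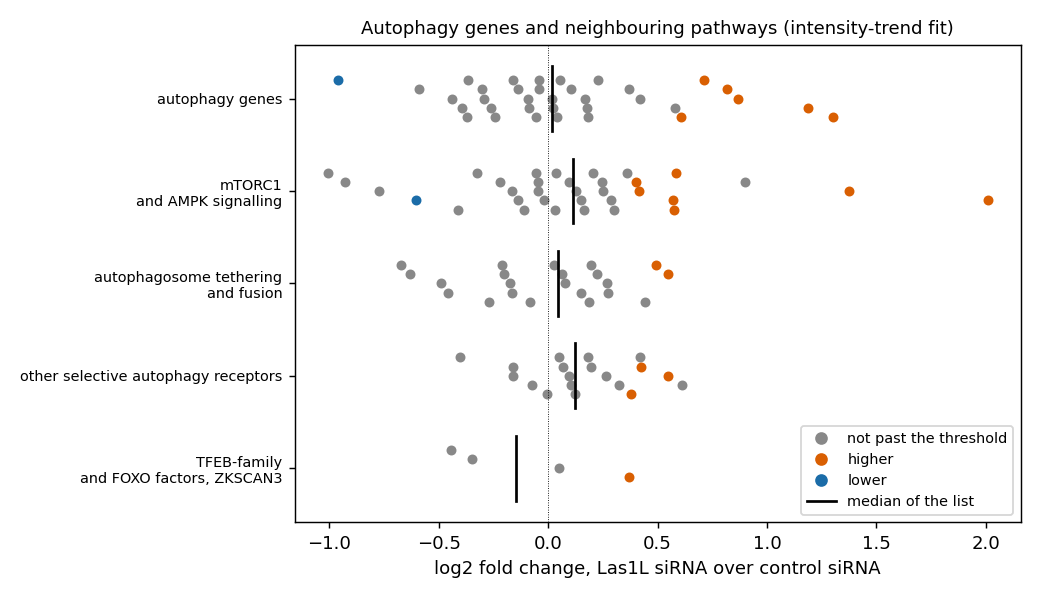
Log2 fold change of Las1L siRNA over control siRNA (x axis) for each tested gene of the autophagy set and of 4 neighbouring lists (y axis), with the vertical bar at the median of the list. Coloured points passed the intensity-trend threshold. SESN1 at 2.01 and SESN2 at 1.37 stand right of the other signalling genes past the threshold, and the 5 medians lie between -0.15 and 0.13.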

How the data were processed

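RNA of HCT116 cells was hybridised to 4 Illumina HumanHT-12 v4 arrays. The deposited values are linear intensity per probe, made with GenomeStudio per the submitters' processing notes. The sources used here do not give its version or how it corrected background and normalized. The deposited intensity values have a median of 14.9 over the 4 arrays pooled. On every array 26.9% lie below 0, so the arrays look aligned. A change shared by most genes would not show in values so aligned. A further table was not used, since its 8 columns of values match no sample's labels.

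Values under 16 were raised to 16 and log2 was taken. The root mean square of negative values, 17.1, was taken as background noise and its one-sided 0.05 point, 28.1, as the limit. Probes over it on at least 2 of 4 arrays were tested, 17689 of 47323, and the brightest named probe stood for a gene. Names came from the platform annotation of 2016, updated through RefSeq for 30092 of 30113 probes with 1 symbol, while 8 had several and 17202 none. Two-sided tests used limma 3.58.1 in R 4.3.3 (functions lmFit and eBayes), without and with an intensity trend, run on 1 probe per gene. The prior variance weighed as 2.43 and 16.9 degrees of freedom beside 2 of the residuals. The number of arrays limits the precision. Functions were tested on simulated data.

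The members, lists and fits were chosen with earlier results of these data known. Array values are given for members past the trend threshold or with groups apart at an absolute log2 fold change of at least 0.5, and in other lists up to 6 genes past the threshold are named by size of change. Values of further members were added for description. Alternatives covered the floor, the filter, the probe rule, the variance model, the design, the threshold, the fitted table, the centring and each array left out.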

Additional observations from a re-analysis of the deposited data

How the results depend on the processing

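The fits over all tested probes and with median-centred values were added after seeing the data. Fitting all tested probes without a trend was the earlier form, and it had passed no gene before the trend fit was chosen. The trend fit called 2313 genes, 6 members higher and 1 lower. With a floor of 50 these were 253, 1 and 0, with no filter 0, 0 and 0, and with 3 groups 670 genes, without ULK1 and ATG5. At an adjusted p under 0.1 it called 8 members higher and 2 lower, beside 29.2% of all genes in either direction. Leaving out 1 array gave 67 to 1789 genes, 0 to 6 members higher and 0 to 1 lower. The fit without a trend called 500 genes, 3 members higher and 0 lower. With a floor of 50 it called 358 genes, 1 member higher (TAX1BP1) and 1 lower (ATG14, not PIK3R4). With an offset of 64 these were 2002, 7 and 1, and with no filter 14 genes and 0 members higher. Above background on all 4 arrays they were 1224, 7 and 2, at the stricter limit 1065, 5 and 1, and at 0.1 1603, 7 and 2. In these settings and with the offset this fit held PIK3C3 as higher. Above background on all 4 arrays and at 0.1 it held ATG4D as lower. With 3 groups or over all tested probes it called 0 genes and 0 members higher. The cause was not tested. Signals near the background limit bound what dim members can show.

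Replicate numbers count siRNAs in one group and repeat arrays in the other, so the labels give no pairing. Same-numbered deviations correlated at 0.03. With 1 difference per group, and that of the Las1L group also between siRNAs, this cannot show whether same-numbered arrays are paired. With the replicate block the fit without a trend called 0 genes and 0 members higher, and the trend fit the same 6 and 1 members. Members with groups apart, 11 higher and 6 lower, were 14 to 18 and 9 to 11 without 1 array, where fewer arrays separate more easily. The share of all genes apart was not computed without 1 array, so these counts cannot be set against it. The median of the members, 0.02, was -0.0053 to 0.056 without 1 array. LAS1L kept its log2 fold change of -2.02 with a floor of 50 and with no filter, where it did not pass the trend fit. The 9 named members kept their sign in all 16 alternatives. Among the other 26 members 14 changed sign in at least 1 alternative of the trend fit, none past the threshold there.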
